A study of Mus musculus with 20 samples.

Results

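DNA methylation at 9 genes of the B cell lineage (Rag1, Rag2, Vpreb1, Cd79a, Cd79b, Blnk, Fcrla, Pax5 and Ebf1) was compared in mouse liver at birth (d0) and at weaning (d21), in separate animals. The members were every CpG between 5 kb upstream of the transcription start site (TSS) and the end of each gene that had at least 10 reads in at least 3 libraries of each group. This gave 441 CpGs of the 921995 CpGs kept genome-wide by the same minimum, and 119 of 234408 bins of 200 bp. The kept CpGs lay in Pax5 (225), Ebf1 (109), Vpreb1 (55), Blnk (25), Rag1 (22), Cd79b (3), Cd79a (1) and Fcrla (1). Rag2, the partner subunit of the Rag1 recombinase, had none: 7 CpGs were listed in its window, no library reached 10 reads at any of them, and no value of Rag2 is given.

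B cells arise from blood stem cells in steps that in the mouse take place in the fetal liver before birth and in the bone marrow afterwards. Ebf1 and Pax5 are transcription factors that start and fix the B cell program, Rag1 and Rag2 cut the immunoglobulin genes for recombination, and Vpreb1 forms part of the surrogate light chain of the pre-B cell receptor. Cd79a and Cd79b are the signalling chains of the B cell receptor, Blnk is the adaptor that passes their signal on, and Fcrla is an Fc receptor-like protein found inside B cells. Control regions of lineage genes are in general less methylated in the cells that use them than in other cells. In whole liver, a change in the share of B lineage cells and a change of methylation within any cell type cannot be told apart.

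The livers came from C57BL/6J offspring labelled male, with 5 libraries in each of 4 groups. The study used 5 dams per group at each age, but the sources used here do not say which library came from which dam, so p-values measure only the spread between these libraries. In AME-d21 and AME-d0 the dams were exposed to the adverse maternal environment (AME). This was a Western-style diet with added fat, sucrose and cholesterol from before mating, together with stress late in gestation. The AME-d0 offspring met it before birth only, and the AME-d21 offspring through lactation as well. The AME ages thus also differ in length of exposure. In Con-d21 and Con-d0 the dams ate a control diet and were not stressed. The d0 offspring were taken by cesarean section and the d21 offspring after a short fast, and each library was made from flash-frozen whole liver of wild-type animals with all its cell types. Reduced representation bisulfite sequencing (RRBS) cuts DNA with MspI at CCGG and counts, at each CpG, the reads in which the cytosine was methylated or not.

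The libraries held 23248139 to 45769589 reads at CpGs. The library labelled AME-d21 replicate 4 stood apart: its X chromosome reads came to 2.88 for each 100 on the autosomes (1.40 to 1.55 for the remaining 19 libraries), and it had 14.3 ppm of its reads on the Y short arm, against 147 to 191 ppm, so its data go against the label male. AME-d0 replicates 1 and 3 had a mean methylation over the kept CpGs of 33.8% and 33.9%, against 36.6% to 37.3% in the other AME-d0 libraries. The member windows and bins called between the AME ages are also counted without them. The promoters called between the AME ages, the counts of non-overlap, the bins shared by comparisons and the other gene lists are given with all libraries only.

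Between d0 and d21 most of the B cell gene windows became more methylated, and the difference was largest at the receptor chains. A window here is the stretch from 5 kb upstream to the gene end, with the methylated and all reads of its kept CpGs summed in each library. The test was limma on the log2 ratio of methylated to unmethylated reads, with 1 read added to each, and a window counted as called when its p, adjusted by Benjamini-Hochberg over 17586 protein-coding genes, was under 0.05. In AME offspring 6 of the 8 measured windows were higher in AME-d21 than in AME-d0 (Cd79b, Cd79a, Fcrla, Blnk, Pax5 and Rag1) and 0 were lower, where 36.6% of all windows were higher and 2.27% lower. In controls 5 of 8 were higher in Con-d21 than in Con-d0 (the same genes except Rag1) and 0 were lower, where 32.2% of all windows were higher and 3.88% lower. The d21 and d0 libraries did not overlap at 4 of 8 windows in AME offspring and at 5 of 8 in controls, where 28.3% and 26.6% of all windows did not overlap.

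The median window rose in the genome too, by 0.46 on the log2 scale in AME offspring and 0.29 in controls, so the member values were also read after each library was centred on its own median window. Cd79b, Cd79a, Fcrla and Blnk were called after centring as well. Rag1 in AME offspring was not (log2 difference 0.29, limma adjusted p = 0.331), and neither was Pax5 (0.01 in AME offspring, limma adjusted p = 0.981, and 0.07 in controls, limma adjusted p = 0.628). Without AME-d21 replicate 4, 7 windows were called between the AME ages, and without AME-d0 replicates 1 and 3 together 4 were called. The shares of all windows called without these libraries are not given here.

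**Figure D1:**
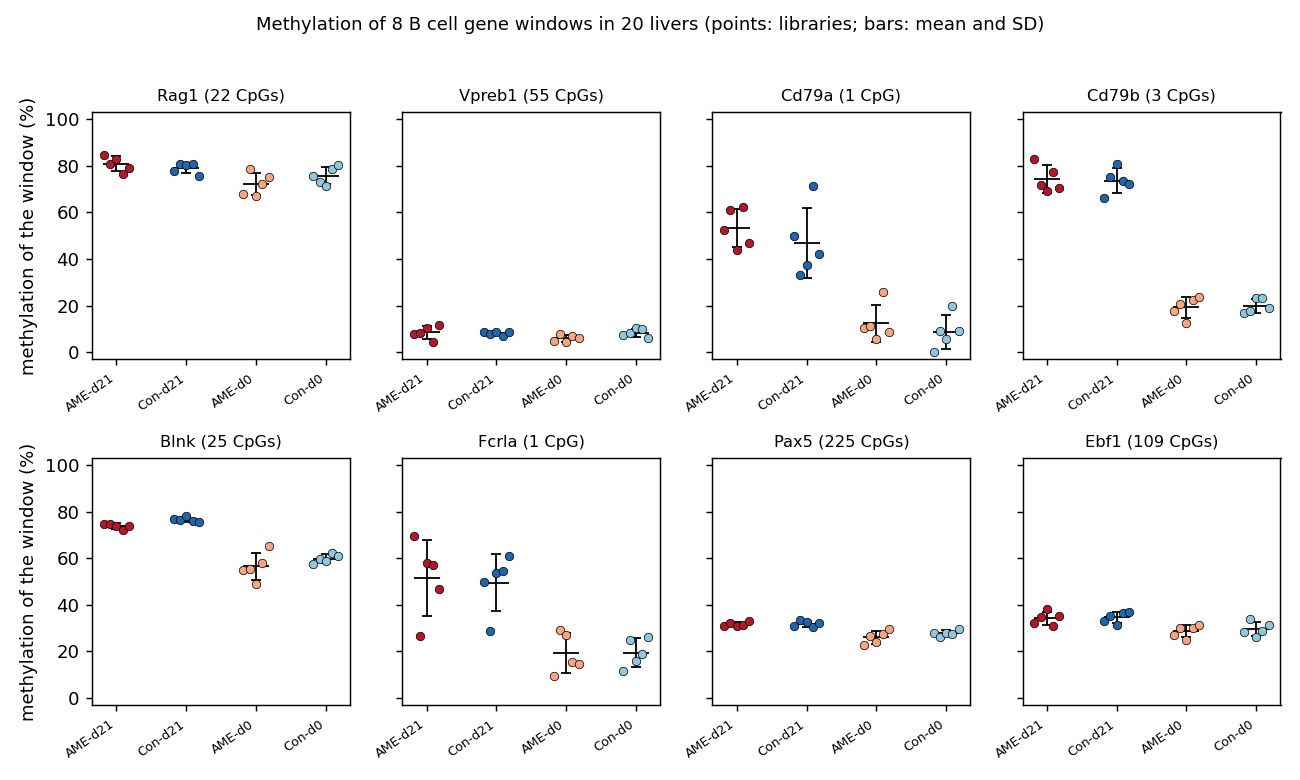
Methylation (%, vertical axis) of 8 gene windows in each of the 20 livers, with groups on the horizontal axis, 1 point per library and bars for the mean and SD of 5 libraries. At Cd79b, Cd79a, Blnk and, by a small margin, Pax5 every d21 library lies above every d0 library. The Rag1 and Ebf1 points overlap between the ages, and the Vpreb1 points lie under 12% in all 4 groups.

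Cd79b, on the minus strand of chromosome 11 (chr11:106311341-106314762, GRCm38), encodes Igβ of the B cell receptor. Its 3 measured CpGs lie close together in an intron, 907 to 946 bp downstream of the TSS and outside any CpG island. The bin that holds them is shown because it carries the largest rise of the set. It is given as the GRCm38 reference on the gene's strand, with the measured CpGs in capitals.
Cd79b, chr11:106313801-106314000: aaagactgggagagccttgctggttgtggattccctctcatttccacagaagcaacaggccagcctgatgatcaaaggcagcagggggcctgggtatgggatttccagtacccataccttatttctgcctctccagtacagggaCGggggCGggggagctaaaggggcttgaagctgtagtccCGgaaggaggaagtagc
The 3 CpGs were at 83.1, 71.6, 69.0, 77.4 and 70.6% in AME-d21, against 17.7, 20.5, 12.4, 22.2 and 23.7% in AME-d0. They were at 66.1, 75.4, 80.7, 73.4 and 72.3% in Con-d21, against 16.9, 17.6, 23.4, 23.1 and 18.8% in Con-d0. Every d21 library lay above every d0 library, and within an age the AME and Con values overlapped. The mean was 74.3% ± 5.81 in AME-d21 and 19.3% ± 4.46 in AME-d0 (SD, n = 5 each), a log2 difference of 3.57 (SE 0.259, limma adjusted p = 5.57e-06). It was 73.6% ± 5.30 in Con-d21 and 19.98% ± 3.07 in Con-d0, a log2 difference of 3.44 (SE 0.199, limma adjusted p = 1.61e-06). Ordered by the rise in percentage points, the Cd79b window was number 1 of 17586 in AME offspring (55.04 points) and number 3 in controls (53.6 points). A window of 3 CpGs can move further than one that averages many, and among 234408 bins the same CpGs ranked 360 and 281.

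Each of the 3 Cd79b CpGs was also called on its own. A CpG was called where a quasi-binomial logistic model of its reads gave an unadjusted p under 0.001 and the difference in group means (Δme) was at least 10 percentage points, the thresholds in the study's methods. The CpG at chr11:106313816 was at 76.4% in AME-d21 and 22.4% in AME-d0 (quasi-binomial p = 2.75e-06) and at 76.5% in Con-d21 and 20.4% in Con-d0 (quasi-binomial p = 6.9e-07). The CpG at chr11:106313855 was the lowest of the 3 in every group, at 70.2% in AME-d21, 64.6% in Con-d21, 10.9% in AME-d0 and 14.6% in Con-d0. All 3 were called in both age comparisons whichever single library was left out.

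Cd79a, on the plus strand of chromosome 7 (chr7:24897381-24902197), encodes Igα, the partner of Igβ. Of 20 CpGs listed in its window 1 passed the read minimum, at chr7:24902154 in the untranslated end of the transcript, 4773 bp from the TSS. It is shown in capitals within 30 bases of the reference.
Cd79a, chr7:24902140-24902169: agggggaaccagccCGggtgttaccaaatt
The CpG was at 52.4, 61.1, 43.8, 62.5 and 47.1% in AME-d21, against 10.5, 11.1, 5.6, 25.9 and 8.7% in AME-d0. It was at 50, 33.3, 37.5, 71.4 and 42.1% in Con-d21, against 0.0, 9.1, 5.9, 20 and 9.1% in Con-d0. No d21 library overlapped a d0 library, although only 8 to 35 reads lay behind each value. The Con-d0 library at 0 had 17 reads, and a count of 0 there allows up to 17.6% (3 reads, counting error only). The log2 difference was 2.67 in AME offspring (SE 0.319, limma adjusted p = 0.000113) and 2.81 in controls (SE 0.449, limma adjusted p = 0.000717). As a single CpG it passed the CpG threshold in AME offspring (quasi-binomial p = 0.000898) and not in controls (quasi-binomial p = 0.00148). The difference between these 2 comparisons was tested as an interaction on its window and bin, and was not called.

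Blnk, on the minus strand of chromosome 19 (chr19:40928927-40994535), encodes the adaptor that links the B cell receptor kinases to downstream signalling. Its 25 CpGs are 4 upstream of the TSS and 21 in introns, all outside islands. The 25 together were at 74.7, 74.7, 74.0, 72.0 and 73.7% in AME-d21, against 54.9, 55.2, 48.9, 58.0 and 65.3% in AME-d0. They were at 76.7, 76.3, 78.2, 76.2 and 75.5% in Con-d21, against 57.3, 59.5, 59.0, 62.3 and 60.8% in Con-d0. The ages did not overlap in either background. The log2 difference was 1.11 in AME offspring (SE 0.179, limma adjusted p = 0.000723) and 1.13 in controls (SE 0.102, limma adjusted p = 2.11e-05).

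The upstream Blnk CpGs differed more between the ages than the intronic ones, a description without a test. The 4 upstream sites had a median rise of 28.9 points in AME offspring and 31.8 points in controls, against 10.96 and 9.87 points over the 21 intronic sites. The intronic sites were already high, with a median of 71.1% in AME-d0 and 76.3% in Con-d0. The bin whose CpG nearest the TSS lies at -1349 bp is shown because it holds 3 of the 4 upstream sites, with the measured CpGs in capitals and the minus strand written.
Blnk, chr19:40995801-40996000: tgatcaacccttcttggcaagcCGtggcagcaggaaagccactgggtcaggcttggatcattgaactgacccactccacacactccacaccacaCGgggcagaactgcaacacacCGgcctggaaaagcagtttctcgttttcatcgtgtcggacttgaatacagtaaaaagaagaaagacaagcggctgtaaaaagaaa
This bin was at 71.6, 60, 70.4, 52.2 and 66.4% in AME-d21, against 23.4, 27.6, 34.4, 25.4 and 32.3% in AME-d0. It was at 72.0, 56.2, 78.9, 62.9 and 61.2% in Con-d21, against 25.8, 30.3, 26.8, 36.9 and 35.4% in Con-d0. Again the ages were fully apart. The log2 difference was 2.14 (SE 0.320, limma adjusted p = 0.000225 over all bins) in AME offspring and 2.13 (SE 0.330, limma adjusted p = 0.000326) in controls. Its CpG at chr19:40995884 was at 78.7% in AME-d21 and 29.2% in AME-d0 (quasi-binomial p = 3.21e-05) and at 77.1% in Con-d21 and 34.1% in Con-d0 (quasi-binomial p = 0.000154). That call held in both comparisons whichever library was left out. The neighbour at chr19:40995905 was called in both too, but in controls it kept its call in 3 of 10 such repeats. The intronic CpG at chr19:40986655 was called in AME offspring alone, at 90.8% in AME-d21 and 66.5% in AME-d0 (quasi-binomial p = 0.000598), and in 2 of 10 repeats.

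Fcrla, on the minus strand of chromosome 1 (chr1:170917576-170927583), had 1 measured CpG of 27 listed, at chr1:170924601 in an intron, 2982 bp downstream of the TSS. It is the last CpG of the bin shown here.
Fcrla, chr1:170924601-170924800: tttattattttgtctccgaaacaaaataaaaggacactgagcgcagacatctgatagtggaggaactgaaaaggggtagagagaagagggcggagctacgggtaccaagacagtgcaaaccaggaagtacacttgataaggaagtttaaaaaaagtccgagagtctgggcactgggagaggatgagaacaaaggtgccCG
The CpG was at 69.6, 26.5, 58.1, 57.1 and 46.7% in AME-d21, against 9.4, 29.0, 27.3, 15.6 and 14.8% in AME-d0. It was at 50, 28.6, 53.6, 54.5 and 60.9% in Con-d21, against 11.8, 25, 15.8, 19 and 26.1% in Con-d0. AME-d21 replicate 2 lay among the AME-d0 libraries, and in controls the ages did not overlap. The log2 difference was 2.05 (SE 0.454, limma adjusted p = 0.00473) in AME offspring and 1.87 (SE 0.324, limma adjusted p = 0.00117) in controls, on 17 to 46 reads per library. By the CpG threshold it was called in controls (quasi-binomial p = 0.000621), in 2 of 10 repeats with a library left out.

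Vpreb1 lies on the minus strand of chromosome 16 (chr16:16868403-16870843), and overlaps Top3b, a topoisomerase gene on the plus strand that starts inside it. RefSeq places the Vpreb1 TSS further downstream, at chr16:16869255, and distances here are from the GENCODE start. Its CpGs were of 2 kinds. The 48 island sites around the TSS, 44 of them also inside Top3b, had group means of at most 2.27% in AME-d21, 1.11% in Con-d21, 0.588% in AME-d0 and 1.67% in Con-d0. The 5 CpGs in the coding exon, more than 2 kb downstream, were mostly methylated. They are shown because theirs was the only one of the 6 Vpreb1 bins to be called, with the CpGs in capitals and the minus strand written.
Vpreb1, chr16:16868601-16868800: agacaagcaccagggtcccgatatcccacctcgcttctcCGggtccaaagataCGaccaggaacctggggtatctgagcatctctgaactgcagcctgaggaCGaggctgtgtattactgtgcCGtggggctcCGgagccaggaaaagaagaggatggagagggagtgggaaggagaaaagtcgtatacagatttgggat
These 5 CpGs together were at 96.6, 94.8, 95, 90.6 and 94.0% in AME-d21, against 71.6, 95.3, 71, 85.0 and 87.1% in AME-d0. They were at 91.1, 92.7, 90.9, 96.9 and 95.2% in Con-d21, against 84.2, 80.4, 79.5, 82.8 and 80.9% in Con-d0. The ages were apart in controls, and in AME offspring AME-d0 replicate 2 reached the AME-d21 range. The bin was called in both comparisons, with a log2 difference of 1.52 in AME offspring (SE 0.491, limma adjusted p = 0.0222) and 1.62 in controls (SE 0.310, limma adjusted p = 0.00132). With 1 library left out the call was kept in 7 of 10 repeats in AME offspring and in 10 of 10 in controls, and after centring it was lost in both (limma adjusted p = 0.312 and 0.0588). The other 5 Vpreb1 bins were not called. Over all 55 CpGs the window stood at 8.50% ± 2.77 in AME-d21 and 5.98% ± 1.40 in AME-d0, and at 8.13% ± 0.755 in Con-d21 and 8.40% ± 1.79 in Con-d0 (SD, n = 5 each). These window values did not pass the test (log2 difference 0.50, limma adjusted p = 0.175, and -0.03, limma adjusted p = 0.913).

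Rag1, on the minus strand of chromosome 2 (chr2:101638282-101649501), encodes the catalytic subunit of the recombinase. All of its 22 CpGs also lie within B230118H07Rik, a gene annotated on the same strand, so they cannot be given to Rag1 alone. The 16 CpGs of the coding exon were high in every group, with medians of 91.3% in AME-d21, 92.1% in Con-d21, 83.0% in AME-d0 and 84.5% in Con-d0. The 5 intronic CpGs within 373 bp of the TSS were intermediate, with medians of 49.5, 46.6, 41.9 and 49.3% in the same groups. The CpG nearest the TSS, 61 bp into the untranslated first exon at chr2:101649440, is shown in capitals because it differed most between the ages.
Rag1, chr2:101649426-101649455: tctagcactctggcCGggaggcctgtggag
It averaged 66.01% ± 1.13 in AME-d21 (SD, n = 3) and 29.7% ± 17.9 in AME-d0 (n = 5), and 63.3% ± 13.8 in Con-d21 (n = 5) and 26.9% ± 6.01 in Con-d0 (n = 3), over the libraries with 10 reads. Neither difference passed the CpG threshold (quasi-binomial p = 0.0173 in AME offspring and p = 0.0125 in controls). The whole Rag1 window was at 84.7, 80.9, 83.1, 76.4 and 79.2% in AME-d21, against 67.8, 78.7, 67.2, 72.4 and 75.2% in AME-d0. It was at 77.7, 80.9, 80.5, 80.6 and 75.8% in Con-d21, against 75.8, 72.9, 71.3, 78.8 and 80.2% in Con-d0. The ages overlapped in both. The window was called in AME offspring (log2 difference 0.69, SE 0.210, limma adjusted p = 0.0232) and not in controls (0.26, limma adjusted p = 0.230). The call in AME offspring was kept in 6 of 10 repeats with 1 library left out and was lost without AME-d0 replicates 1 and 3, whose low genome-wide methylation is given above. The part of that low level in the Rag1 value was not tested.

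Pax5, on the minus strand of chromosome 4 (chr4:44524757-44710487), gave the most CpGs. Its 105 island CpGs had group medians of 1.33% in AME-d21, 1.14% in Con-d21, 1% in AME-d0 and 1.02% in Con-d0, and 81 of them also lie in another annotated gene. The 106 intronic CpGs outside islands had medians of 66.998% in AME-d21, 66.3% in Con-d21, 56.6% in AME-d0 and 59.2% in Con-d0. The window, which averages the unmethylated islands with the rest, was at 30.8, 32.2, 31.1, 31.5 and 33.1% in AME-d21, against 22.6, 26.7, 23.9, 27.6 and 29.5% in AME-d0. It was at 30.8, 33.3, 32.7, 30.5 and 32.3% in Con-d21, against 27.9, 26.3, 27.8, 27.3 and 29.7% in Con-d0. The ages did not overlap, yet the call was marginal in both (log2 difference 0.41, limma adjusted p = 0.0423, in AME offspring and 0.28, limma adjusted p = 0.0442, in controls). It was kept in 1 of 10 repeats in each.

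The Pax5 bins went both ways. Of 57 bins, 15 were higher and 2 lower in AME-d21 than in AME-d0, and 12 were higher and 2 lower in Con-d21 than in Con-d0. The clearest rise in controls, 116928 bp into the gene, and the clearest fall in both comparisons, 76665 bp into it, are shown on the minus strand with measured CpGs in capitals.
Pax5 higher, chr4:44593401-44593600: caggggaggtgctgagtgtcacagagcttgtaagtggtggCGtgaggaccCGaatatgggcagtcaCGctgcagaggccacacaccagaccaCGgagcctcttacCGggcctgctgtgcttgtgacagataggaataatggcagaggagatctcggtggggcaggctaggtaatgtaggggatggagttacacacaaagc
Pax5 lower, chr4:44633801-44634000: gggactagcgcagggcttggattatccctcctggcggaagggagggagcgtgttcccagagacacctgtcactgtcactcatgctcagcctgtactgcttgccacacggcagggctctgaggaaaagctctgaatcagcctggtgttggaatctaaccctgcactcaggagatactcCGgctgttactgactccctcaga
The first bin averaged 87.1% ± 2.62 in AME-d21 and 73.1% ± 5.96 in AME-d0 (SD, n = 5 each), and 87.5% ± 1.46 in Con-d21 and 73.6% ± 4.23 in Con-d0. Its CpG at chr4:44593559 was called in AME offspring, at 91.6% in AME-d21 and 71.1% in AME-d0 (quasi-binomial p = 0.000839), and in 0 of 10 repeats. The falling bin has 1 measured CpG with 10 to 32 reads. It was at 33.3, 20, 23.1, 32.3 and 18.5% in AME-d21, against 61.9, 52.6, 50, 60 and 70.6% in AME-d0. It was at 18.2, 21.1, 24.1, 28.1 and 8.7% in Con-d21, against 60, 33.3, 60, 50 and 50% in Con-d0. No library of one age reached the other. The log2 difference was -1.90 (SE 0.330, limma adjusted p = 0.000622) in AME offspring and -1.85 (SE 0.369, limma adjusted p = 0.00171) in controls. Only 0.694% of all bins fell further in percentage points in AME offspring, and 1.04% in controls. The adjoining bin at chr4:44633601-44633800 was called lower in controls alone (7.73% in Con-d21 and 16.7% in Con-d0), and a bin at chr4:44558201-44558400 in AME offspring alone (4.12% in AME-d21 and 9.62% in AME-d0).

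Ebf1, on the plus strand of chromosome 11 (chr11:44617317-45008091), had 37 island CpGs with group medians of 4.10% in AME-d21, 5.18% in Con-d21, 1.31% in AME-d0 and 1.93% in Con-d0. Of these 37, 17 also lie in another annotated gene. Small rises were frequent at the island CpGs: 34 of the 37 were higher in AME-d21 than in AME-d0 and 33 were higher in Con-d21 than in Con-d0, with median rises of 2.32 and 2.74 points, a count of directions with no test. Among all kept CpGs under 10% at d0 in the other background, 26.7% were higher in AME offspring and 26.8% in controls. That set is not limited to islands and its median change was 0 points. Ebf1 island CpGs reached 38.2% in AME-d0 and 29.1% in Con-d0, so the shares are not like for like. Of member CpGs under 10%, 46.2% were higher in AME offspring and 47.9% in controls. In the same order, 50 and 56 of 105 Pax5 island CpGs were higher, and 7 and 4 of 48 at the Vpreb1 island. The 66 intronic Ebf1 CpGs outside islands had medians of 76.0% in AME-d21, 71.9% in Con-d21, 61.2% in AME-d0 and 64.1% in Con-d0. The window was at 32.4, 34.8, 38.1, 30.8 and 35.1% in AME-d21, against 27.1, 30.1, 24.9, 29.9 and 31.1% in AME-d0. It was at 33.0, 35.1, 31.5, 36.6 and 36.9% in Con-d21, against 28.3, 34.0, 26.4, 28.7 and 31.2% in Con-d0. The ages overlapped, and neither comparison passed (log2 difference 0.38, limma adjusted p = 0.0678, and 0.33, limma adjusted p = 0.0712). After centring the log2 difference turned to -0.02 in AME offspring (limma adjusted p = 0.926) and was 0.12 in controls (limma adjusted p = 0.545).

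Among the 32 Ebf1 bins, 15 were higher in each age comparison and 1, in controls, was lower. The clearest rise and the fall in controls lie in introns, 226516 and 215323 bp downstream of the TSS, and are shown on the plus strand with measured CpGs in capitals.
Ebf1 higher, chr11:44843801-44844000: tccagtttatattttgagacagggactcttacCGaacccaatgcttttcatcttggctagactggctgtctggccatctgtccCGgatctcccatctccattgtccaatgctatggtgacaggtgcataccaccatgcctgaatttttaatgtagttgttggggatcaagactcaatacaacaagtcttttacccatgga
Ebf1 lower, chr11:44832601-44832800: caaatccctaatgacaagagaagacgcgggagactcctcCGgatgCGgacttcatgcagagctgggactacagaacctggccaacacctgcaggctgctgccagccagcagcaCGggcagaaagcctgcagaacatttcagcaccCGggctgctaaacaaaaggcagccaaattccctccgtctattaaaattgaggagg
The rising bin was at 92.5, 98.5, 94.8, 88.9 and 89.0% in AME-d21, against 66, 77.8, 80.3, 73.5 and 83.7% in AME-d0. It was at 92, 92.2, 92.9, 92.2 and 92.5% in Con-d21, against 68.6, 73.7, 70.0, 78.9 and 71.4% in Con-d0. The ages were apart in both, and the controls at d21 lay within 1 point of each other (log2 difference in controls 2.01, SE 0.261, limma adjusted p = 8.97e-05). The falling bin was at 25.6, 33.0, 21.9, 36.5 and 18.7% in AME-d21, against 27.3, 24.5, 32.2, 29.9 and 34.0% in AME-d0. It was at 23.0, 16.7, 14.1, 17.2 and 19.8% in Con-d21, against 38.6, 33.3, 25.5, 29.9 and 34.5% in Con-d0. It fell in controls (log2 difference -1.08, limma adjusted p = 0.00856), where the ages were apart, and the AME values overlapped. Its CpG at chr11:44832646 was the only member CpG called lower in either age comparison, at 25.7% in Con-d21 and 50.2% in Con-d0 (quasi-binomial p = 0.000638), and was called in 1 of 10 repeats. Rising Ebf1 CpGs were called in controls at chr11:44843833 (91.7% in Con-d21, 71% in Con-d0) and chr11:44866709 (80.3% in Con-d21, 54.1% in Con-d0). The first kept its call in 9 of 10 repeats with 1 library left out, and the second in 3 of 10.

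The other bins with the smallest adjusted p per gene were as follows. In Blnk an intronic bin at chr19:40941001-40941200 was at 96.1% in AME-d21 and 85.5% in AME-d0, and at 95.7% in Con-d21 and 86.1% in Con-d0. A second, at chr19:40950801-40951000, was called in both as well (93.2% in AME-d21 and 75.8% in AME-d0, 92.9% in Con-d21 and 82.4% in Con-d0). With 1 library left out its call was kept in 4 of 10 repeats in controls and in 10 of 10 in AME offspring. In Ebf1 an intronic bin at chr11:44734401-44734600 was at 92.1% in AME-d21 and 72.7% in AME-d0, and at 94.2% in Con-d21 and 70.8% in Con-d0.

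At each of the called Rag1 bins the libraries of the ages overlapped. In AME offspring the bin with the exon start, chr2:101649401-101649600, was at 56.8% ± 11.2 in AME-d21 and 33.5% ± 8.59 in AME-d0 (SD, n = 5 each), and a coding bin at chr2:101644201-101644400 at 93.4% in AME-d21 and 83.0% in AME-d0. In controls the coding bins at chr2:101644401-101644600 (90.7% in Con-d21, 83.0% in Con-d0) and chr2:101642401-101642600 (91.0% in Con-d21, 85.2% in Con-d0) were called. With 1 library left out the bin at the exon start kept its call in 10 of 10 repeats, and the 3 coding bins kept theirs in 3, 3 and 2 of 10 in the order given. None of the 4 was called after centring.

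**Figure D2:**
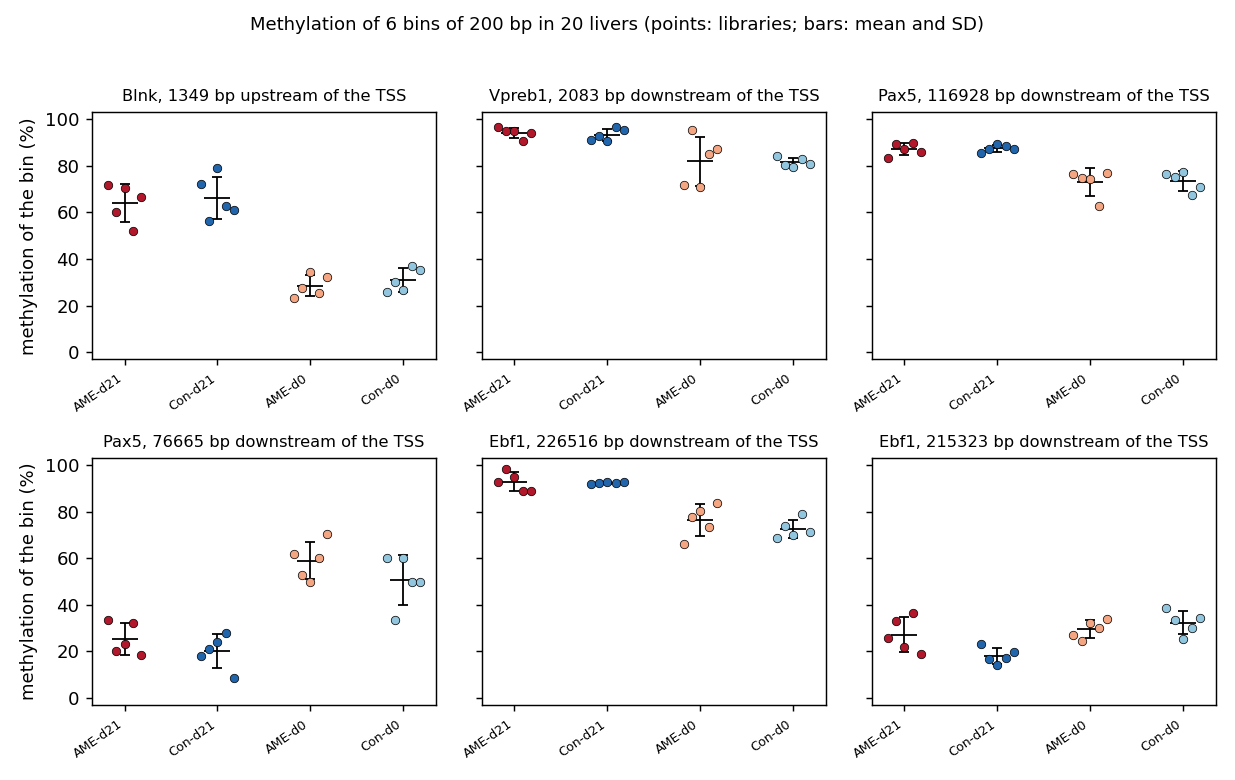
Methylation (%, vertical axis) of 6 bins of 200 bp in each liver, with groups on the horizontal axis, 1 point per library and bars for the mean and SD of 5 libraries. The Blnk, Vpreb1, first Pax5 and first Ebf1 bins are higher at d21, the second Pax5 bin is lower at d21 in both backgrounds, and the second Ebf1 bin is lower in Con-d21 only among the comparisons that passed.

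Over all 119 member bins, 42 were higher and 2 lower in AME-d21 than in AME-d0, where 39.5% of all bins were higher and 2.97% lower. In controls 41 were higher and 3 lower in Con-d21 than in Con-d0, where 35.5% of all bins were higher and 3.53% lower. The B cell gene bins thus rose about as often as bins in general. In these 2 comparisons, which share no library, 25 bins were higher in both (25 of 42 and 25 of 41), 1 was lower in both, 18 were called in AME offspring alone, 18 in controls alone and 0 in opposite directions. The d21 and d0 libraries did not overlap at 26 of the 119 bins in AME offspring and at 31 in controls, where 26.1% and 24.7% of all bins did not. With each library centred on its median bin, 4 were higher and 9 lower in AME offspring, and 7 higher and 8 lower in controls, as the median bin itself rose by 0.80 and 0.68 on the log2 scale. Of the Blnk, Pax5 and Ebf1 bins printed as sequence, the Blnk bin, the falling Pax5 bin, the falling Ebf1 bin in controls and the rising Ebf1 bin in controls were still called then. The rising Pax5 bin was not called in either comparison, nor the rising Ebf1 bin in AME offspring. Without AME-d0 replicates 1 and 3, 25 bins were higher and 2 lower in AME-d21, and without AME-d21 replicate 4, 39 and 2. The shares of all bins called after centring or without these libraries are not given here. The counts in these settings therefore do not show whether member bins differ from bins in general.

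**Figure D3:**
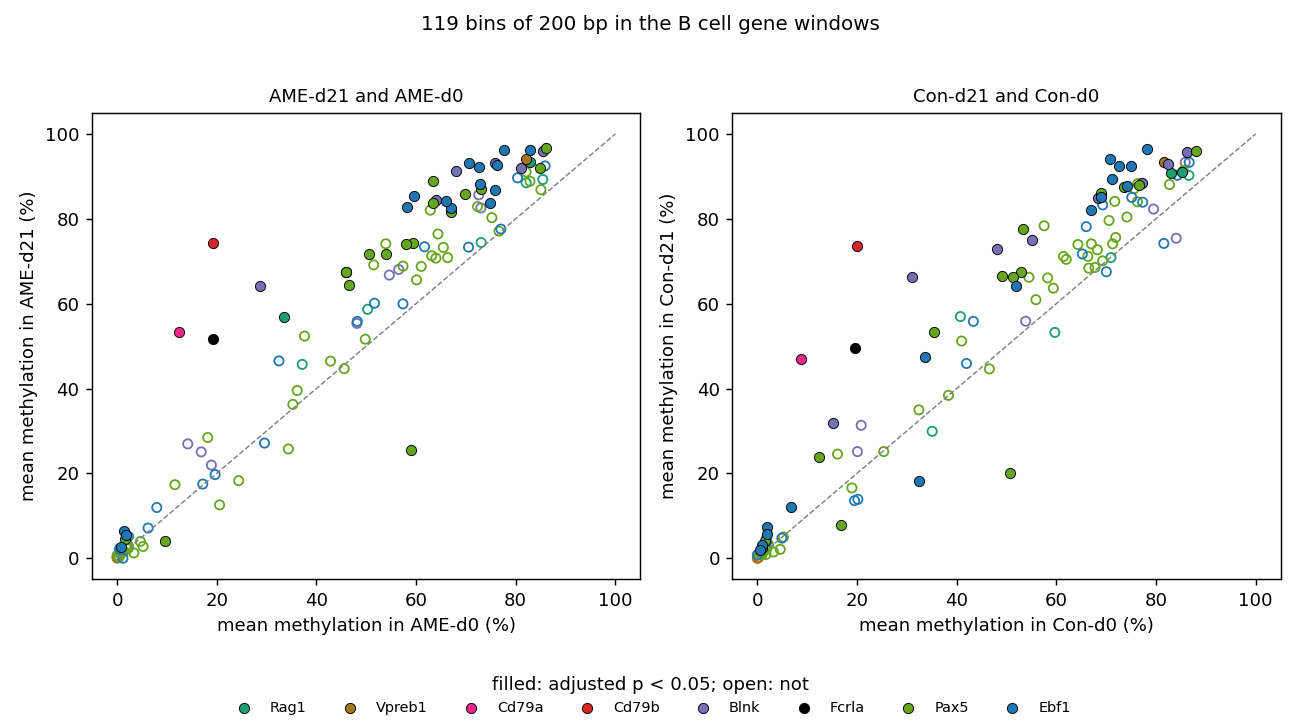
Mean methylation of the 119 bins at d21 (%, vertical axis) against d0 (%, horizontal axis), in AME offspring on the left and controls on the right. Each point is 1 bin in the colour of its gene, filled where the limma adjusted p was under 0.05, and the dashed line marks equal levels. Cd79b, Cd79a, Fcrla and 1 Blnk bin stand far above the line, and 1 Pax5 bin far below it.

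Among single CpGs, 8 of 441 were called higher and 0 lower in AME-d21 than in AME-d0, where 2.56% of all CpGs were higher and 0.553% lower. In controls 8 were higher and 1 lower, where 2.48% were higher and 0.731% lower. The level at birth, read in the other background so that it shares no library with the comparison, ordered the changes. The 219 CpGs under 10% in AME-d0 had a median change of 0 points in controls, the 100 between 10 and 60% one of 5.40 points, and the 122 above 60% one of 8.14 points. Over all kept CpGs the medians were 0, 7.89 and 7.91 points. Members were more often intermediate than CpGs in general (22.7% against 12.5%) and less often high (27.7% against 39.4%), a description without a test.

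**Figure D4:**
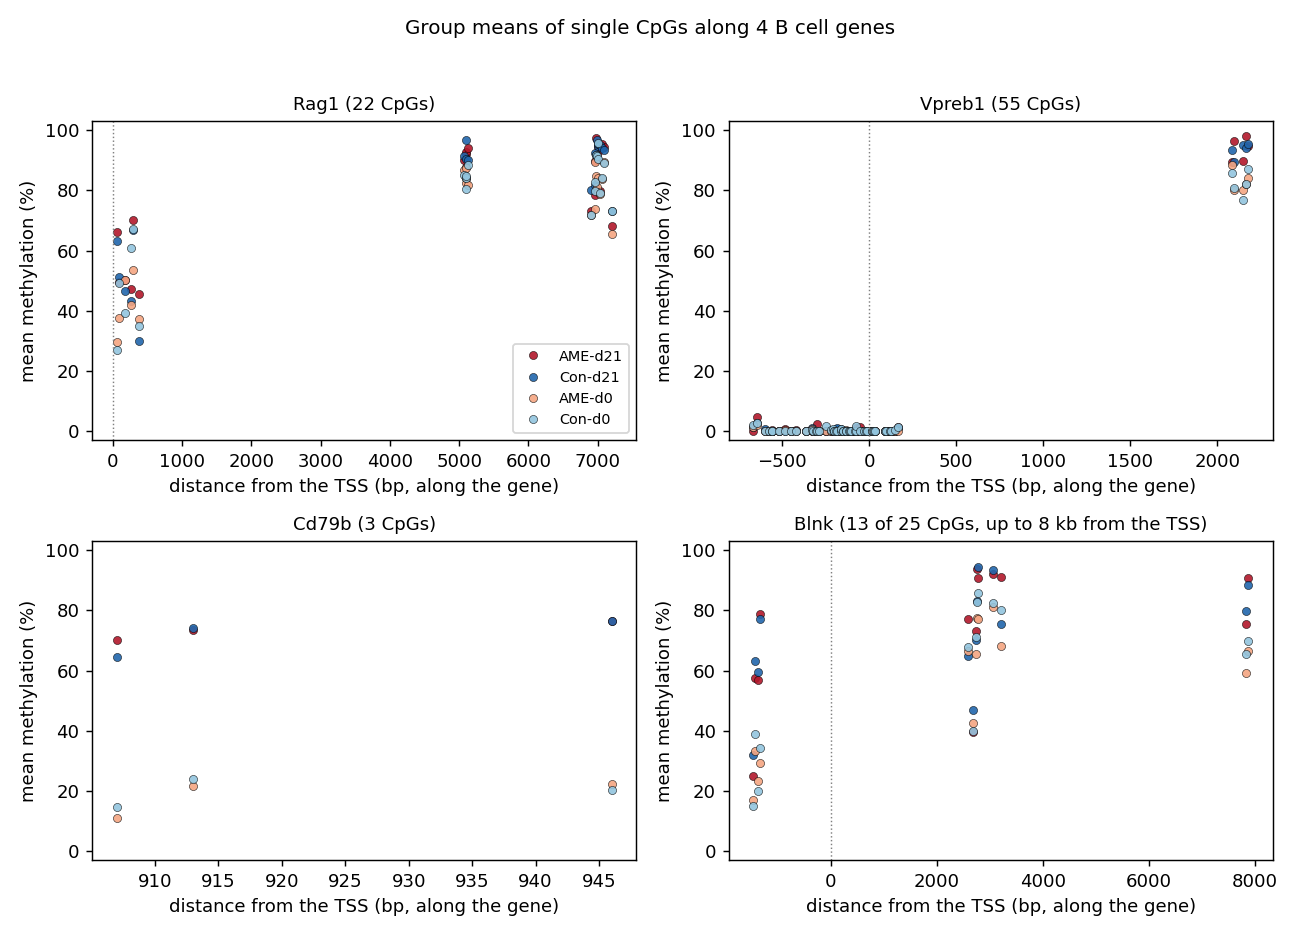
Group mean methylation (%, vertical axis) of single CpGs against their distance from the TSS (bp along the gene, horizontal axis, dotted line at the TSS) in Rag1, Vpreb1, Cd79b and the part of Blnk near its TSS, with 1 colour per group. The d21 and d0 points are far apart at Cd79b and upstream of Blnk, and they lie together near 0% at the Vpreb1 island.

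Promoters (the TSS with 1 kb each way) could be measured at 4 of the genes. That of Cd79b holds the 3 CpGs described above and was called in both age comparisons. It was the 1 of 4 called higher in AME-d21 than in AME-d0, where 13.5% of all promoters were higher and 2.65% lower. In controls 2 of 4 were higher, where 13.1% of all promoters were higher and 3.23% lower: Cd79b and Ebf1. The Ebf1 promoter was at 2.50, 1.22, 2.86, 1.32 and 1.79% in Con-d21, against 0.60, 0.00, 0.76, 0.56 and 0.52% in Con-d0 (log2 difference 1.22, limma adjusted p = 0.0103). The ages were apart, at low levels and on 36 to 192 reads per library. Con-d0 replicate 2, at 0, had 124 reads, and a count of 0 there allows up to 2.42% (3 reads, counting error only). With so few methylated reads, the log2 difference with 1 read added also depends on depth. In controls the ages were apart at 2 of 4 member promoters and at 14.3% of all promoters. In AME offspring the Ebf1 promoter was at 0.93, 3.12, 2.70, 2.44 and 1.97% in AME-d21, against 0.00, 0.00, 0.00, 0.00 and 2.34% in AME-d0 (limma adjusted p = 0.195). By the same rule each AME-d0 count of 0 allows up to between 1.92% and 8.33%. The Rag1 promoter, with 6 CpGs, stood at 55.8% ± 3.90 in AME-d21 and 43.1% ± 7.36 in AME-d0, and at 50.04% ± 3.70 in Con-d21 and 48.9% ± 7.69 in Con-d0 (SD, n = 5 each). Neither passed (limma adjusted p = 0.113 and 0.923). The 50 CpGs of the Vpreb1 promoter, taken around the GENCODE start, stayed between 0% and 0.323% in every library, on 1004 to 1972 reads. Most of them also lie in Top3b. RefSeq places the Vpreb1 start further downstream, at chr16:16869255, and no promoter around that start was tested.

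The printed sequences were searched on both strands for letters that B lineage factors are known to bind. Those of Cd79a and Rag1 are 30 bases and not the whole bin. The EBF site (TCCC, any 2 bases, then GGGA) was in none of the printed sequences and in 3 of the 119 whole member bins (2.52%), against 0.767% of all bins. The ETS-family letters AGGAAGT were in the Cd79b bin, at its base 191, and 2 times in the Fcrla bin. They were in 7 member bins (5.88%), against 3.99% of all bins. The E-box CAGGTG was in the falling Pax5 bin and in both Ebf1 bins, and in 16.8% of member bins against 17.6% of all. CAGCTG was in 8.4% against 11.4%. CCGG, the MspI site that RRBS depends on, was in 116 member bins and in 98.5% of all bins. These matches are descriptions of the sequence and no evidence of binding.

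The second question was whether AME changed methylation at these genes within an age. No member window, promoter, bin or CpG was called between AME and Con at either age. By limma 0% of all windows, promoters and bins of the genome were called either. By the CpG test 0% of all CpGs were higher and 0.000542% lower at d0, and 0% and 0.000217% at d21. At an unadjusted p under 0.05, 1 of 8 member windows differed at d0 and 0 at d21, where 8.27% and 4.12% of all windows did. The bins gave 4 of 119 at d0 and 5 at d21 (3.36% and 4.2%, against 5.76% and 5.06% of all bins), and the CpGs 9 and 12 of 441 (2.04% and 2.72%, against 1.68% and 1.61%). The likelihood-ratio test and limma per CpG called 0 members as well.

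The window with an unadjusted p under 0.05 was Vpreb1 at d0. It was at 4.9, 7.6, 4.2, 6.9 and 6.2% in AME-d0, against 7.4, 8.4, 10.3, 9.9 and 6.0% in Con-d0. The groups overlapped, with AME-d0 replicates 1 and 3 lowest. The log2 difference was -0.53, with a 95% interval of -1 to -0.05 (limma adjusted p = 0.593). The window differed by -2.42 points, but the 6 Vpreb1 bins differed by only -0.27 to 0.44 points between AME-d0 and Con-d0. The window sums reads over CpGs near 0% and the 5 highly methylated coding CpGs. Its value therefore also depends on how the reads are shared between them, which was not tested. At d21 the Blnk window was the only one where the groups did not overlap: 72.0 to 74.7% in AME-d21 and 75.5 to 78.2% in Con-d21 (values by library are given above), where 0.631% of all windows did not overlap. That log2 difference was -0.21, with a 95% interval of -0.44 to 0.02, and it was not called. For Cd79b, which changed most with age, the interval was -0.55 to 0.40 at d0 and -0.48 to 0.60 at d21, against log2 differences of more than 3 between the ages. For Pax5 it was -0.44 to 0.17 at d0 and -0.24 to 0.22 at d21, and for Cd79a, with its few reads, -0.42 to 1.36 and -0.46 to 1.13. These intervals bound the differences and do not show that the groups were alike.

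Differences between AME and Con at single CpGs, taken as the largest of each gene, were not called. At d0 a Rag1 CpG 265 bp from the TSS (chr2:101649236) was at 41.9% ± 14.5 in AME-d0, against 60.9% ± 7.38 in Con-d0 (SD, n = 5 each). An intronic Ebf1 CpG (chr11:44622247) was at 57.4% in AME-d0, against 42.0% in Con-d0, and a Pax5 CpG (chr4:44594676) at 27.5% in AME-d0, against 59.7% in Con-d0. Each had a wide spread and the Pax5 value rests on 3 AME-d0 libraries. At d21 an Ebf1 CpG (chr11:44665446) was at 26.9% in AME-d21 and 7.41% in Con-d21, and a Pax5 CpG (chr4:44602785) at 49.9% in AME-d21 and 66.7% in Con-d21, both over 3 or 4 libraries per group. The Rag1 CpG with the largest difference at d21 (chr2:101649128) was at 45.7% ± 18.1 in AME-d21, against 29.9% ± 12.7 in Con-d21. For Cd79a, Cd79b, Fcrla and Vpreb1 the largest differences were 3.55, -3.74, -0.314 and 3.17 points at d0, and 4.20, 5.61, 2.07 and 6.86 points at d21.

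Among bins the largest difference at d21 was a Blnk bin with 1 CpG, chr19:40959401-40959600 in an intron. It was at 66.7, 53.3, 42.9, 25 and 88.9% in AME-d21, against 76.5, 53.8, 84.6, 72.7 and 76.9% in Con-d21. The groups overlapped widely on 4 to 38 reads, and the log2 difference was -0.84 (limma adjusted p = 0.971).

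An intronic Blnk CpG at chr19:40991328 went opposite ways at the ages. With at least 10 reads it was at 91.2% ± 5.65 in AME-d21 and 75.4% ± 3.57 in Con-d21, and at 68.1% ± 12.1 in AME-d0, against 80.1% ± 7.18 in Con-d0 (SD, n = 5, except 4 in Con-d0). In its bin, chr19:40991201-40991400, AME-d21 was at 93.3, 100, 85.7, 88.9 and 88.0%, against 71.4, 74.1, 74.2, 76.5 and 81.0% in Con-d21. AME-d0 was at 78.6, 72.0, 50, 77.8 and 62.1%, against 100, 78.9, 90.5, 74.3 and 76.7% in Con-d0. The d21 groups were apart, which held for 1 of 119 member bins and 0.636% of all bins, and the d0 groups overlapped. The AME effect at d21 minus that at d0 was 2.55 on the log2 scale, with the smallest p of the member bins, and its limma adjusted p over all bins was 0.970. The bin holds 1 CpG with 8 to 36 reads. Over all members the interaction called 0 windows and 0 bins, as it called 0% of the genome, so the age effects in AME offspring and controls were not shown to differ at any of the 8 measured genes. At an unadjusted p under 0.05 it gave 0 of 8 windows and 3 of 119 bins, where 6.36% of all windows and 5.09% of all bins did.

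Part of the other genes of the B cell program were called higher with age. Of 55 listed genes 50 had a window, and 27 were higher and 2 lower in AME-d21 than in AME-d0 (36.6% and 2.27% of all windows), with a median difference of 8.85 points where the median of all windows was 4.05. In controls 26 were higher and 2 lower in Con-d21 than in Con-d0 (32.2% and 3.88% of all windows), with a median of 6.51 points where that of all windows was 2.21. Mzb1, a chaperone of antibody-secreting B cells, was at 35.9% in AME-d21 and 2.61% in AME-d0 (limma adjusted p = 4.74e-08), and at 31.9% in Con-d21 and 2.54% in Con-d0 (limma adjusted p = 2.96e-07). Ccr7, the receptor that guides lymphocytes to lymph nodes, was at 79.6% in AME-d21 and 44.0% in AME-d0, and at 76.6% in Con-d21 and 40.1% in Con-d0. Flt3 (53.8% in AME-d21, 34.2% in AME-d0), a receptor of early progenitors, and Bank1 (91.4% in AME-d21, 71.9% in AME-d0), a B cell scaffold protein, were among the clearest rises in AME offspring. Cd24a, a surface protein of immature B cells, rose at very low levels (1.31% in Con-d21, 0.127% in Con-d0).

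Both falling genes fell in both comparisons. Cd38, an NAD-consuming surface enzyme that other liver cells also carry, was at 21.9% in AME-d21 and 48.1% in AME-d0, and at 22.2% in Con-d21 and 51.2% in Con-d0. Cd37, a tetraspanin of leukocytes, was at 33.7% in AME-d21 and 43.5% in AME-d0, and at 35.4% in Con-d21 and 44.7% in Con-d0. No gene of this list was called between AME and Con at either age.

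Markers of other liver cells moved with age beside the B cell genes, and their counts are to be read against the same shares of all windows (36.6% higher and 2.27% lower in AME offspring, 32.2% and 3.88% in controls). Of 12 myeloid and progenitor marker windows 7 were higher and 1 lower in each age comparison, with medians of 13.3 points in AME offspring and 11.4 points in controls, and their mean level per library was 47.0 to 51.0% in AME-d21, 47.9 to 51.1% in Con-d21, 32.2 to 36.5% in AME-d0 and 36.2 to 37.9% in Con-d0. Of 11 T and NK cell windows 7 were higher in AME offspring and 8 in controls, with medians of 11.3 and 10.3 points, and 0 were lower. Of 7 endothelial windows 5 were higher in each, and of 5 Kupffer cell windows 2, near the share of all windows. Spi1 stands in both the myeloid list and the list of other B cell genes.

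Hepatocyte markers went the other way. Of 12 windows 0 were higher and 7 lower in AME-d21 than in AME-d0, and 1 was higher and 7 lower in Con-d21 than in Con-d0, with medians of -13.6 and -16.8 points. Their mean level per library was 41.6 to 44.2% in AME-d21, 40.03 to 44.3% in Con-d21, 53.5 to 59.1% in AME-d0 and 56.8 to 59.3% in Con-d0. The erythroid windows were mixed, with 2 higher and 0 lower of 8 in AME offspring and 3 and 1 in controls. Of 4 erythroid promoters 3 were higher and 0 lower in each age comparison, with medians of 13.0 points in AME offspring and 13.6 in controls. Of all promoters 13.5% and 13.1% were higher. Rises were not limited to erythroid promoters: 5 of 8 myeloid and progenitor promoters were higher in AME offspring and 7 in controls. Endothelial promoters were higher at 2 of 3 in each, T and NK cell promoters at 2 and 1 of 4, and the 1 Kupffer cell promoter in neither. Hepatocyte promoters were lower at 4 of 6 in each, where 2.65% and 3.23% of all promoters were lower. The part of the cell makeup of the liver in the values at the B cell genes was not tested.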

How the data were processed

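RRBS was measured in 20 livers, 5 per group. The deposited files hold, for each CpG, read counts for methylated and for unmethylated cytosine, with the percent methylation that the authors derived from them. BWA, Bismark, FastQC, Trim Galore and the build mm10 (GRCm38) are named in the processing notes of the submitters, with no versions. Removal of duplicates and merging of strands are not given in the sources used here, and PCR copies without molecular identifiers are not independent molecules. Counts were used from CpGs with at least 10 reads in at least 3 libraries of each group. They were summed over gene windows (5 kb upstream to gene end, GENCODE M21), promoters (1 kb on either side of the TSS) and 200-bp bins. The log2 ratio of methylated to unmethylated reads, with 1 read added to each, was tested with limma 3.58.1 in R 4.3.3, with Benjamini-Hochberg adjustment over all features and only the 2 groups compared in each fit (all 20 libraries for the interaction). Single CpGs were tested with a quasi-binomial F test, with the overdispersion held at 1 or more, in Python 3.11.15 (numpy 2.4.6, scipy 1.17.1, pandas 2.3.3), and figures were drawn with matplotlib 3.10.9. Islands were 500-bp windows with at least 55% GC and an observed to expected CpG ratio of at least 0.65. Scripts were tested on simulated data. All 9 genes were named, with the called bins and CpGs of smallest p per gene and comparison or, where no CpG was called, the CpG with the largest difference, and up to 4 other B cell genes per direction and comparison by smallest p. A gene among these is not reported here. The members and lists were chosen with earlier results of these data known. Alternatives were other read minimums, pseudocounts, weights, scalings, samples in the fit, tests, a replicate block and libraries left out.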

Additional observations from a re-analysis of the deposited data

Results flagged for a closer look

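In 4 cases a library stood apart from the others of its group by Dixon's criterion, which chance meets in about 1 in 20 groups, and 48 groups of 5 libraries were examined. Of the 32 member window groups 1 met it: the single Cd79a CpG was at 25.9% in AME-d0 replicate 4, above the other AME-d0 libraries. AME-d21 replicate 4 met it with 2.88 X chromosome reads per 100 autosomal reads and with 14.3 ppm of its reads on the Y short arm. Con-d0 replicate 5 met it with a mean methylation of 38.4% over the kept CpGs.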

How the results depend on the processing

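Between AME and Con, and for the interaction, 0 members were called in any setting run. The Cd79b, Cd79a, Blnk and Fcrla windows were called between the ages in every alternative that could be run. Window counts between the AME ages (6) became 3 with at least 20 reads and 4 to 7 with 1 library left out. Those between the Con ages (5) became 3 with at least 20 reads, 3 with 10 reads in all 20 libraries, and 4 to 5 with 1 library left out. Promoters called between the Con ages (2) became 1 with 10 reads in all 20 libraries, 1 with equal weight per CpG and 1 after centring. Bins called between the AME ages (44) became 29 with at least 20 reads, 13 after centring and 27 without AME-d0 replicates 1 and 3, and those between the Con ages (44) became 29 with at least 20 reads, 29 with equal weight per CpG and 15 after centring. CpGs called between the AME ages (8) became 31 by the likelihood-ratio test, 15 by adjusted p, 24 by limma, 20 by limma with the replicate block, 3 without AME-d0 replicates 1 and 3, and 5 to 6 with 1 library left out. Those between the Con ages (9) became 39, 18, 26 and 27 in the first 4 of these settings and 4 to 8 with 1 library left out, lowest without Con-d21 replicate 3. The Ebf1 bin starting at chr11:44982601 turned to -0.0407 on the log2 scale between the AME ages after centring. These counts of members are given without the share of all features in each setting. Stricter minimums test fewer CpGs, and the cause of the other changes was not tested.

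Same-numbered libraries did not deviate together (correlations of -0.0314 to 0.0624 over 20 pairs), so the numbers were not taken as pairs. With the replicate block 4 windows were called between the AME ages and 4 between the Con ages. Values at Cd79a and Fcrla are limited by depth, with 8 to 35 and 17 to 46 reads per library at 1 CpG each.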
